A study of Mus musculus with 8 samples.

Results

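The experiment asked whether LPS and a mushroom extract acted on gene expression independently of each other when BV-2 cells received both. BV-2 cells are mouse microglia made to divide without end by an oncogene-carrying retrovirus, and serve in place of the resident macrophages of the brain. The 4 groups were untreated cells (control), cells given 1 µg/mL of lipopolysaccharide (LPS), cells given 100 µg/mL of the extract, a hexane fraction (HF) of Amauroderma rugosum, and cells given both agents at those doses (LPS+HF), all for 24 h. Each group had 2 single-colour Agilent arrays, and all 8 arrays of the series entered the comparison. The interaction was (LPS+HF minus LPS) minus (HF minus control), on log2 signal relative to the 75th percentile of each array. At 0 the fold change with both agents is the product of the fold changes with each alone. A value below 0 means that LPS+HF lay under that product, and a value above 0 that it lay over it. The labels call the arrays of a group biological replicates, but do not say that they came from separate cultures, so the SE and p-values may cover technical spread only. HF is a mixture whose active compounds the labels do not name.

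LPS is sensed by Toll-like receptor 4, which switches on NF-kB and interferon regulatory factors and with them cytokines, chemokines and interferon-stimulated genes. In macrophages the same signal also lowers many genes, among them scavenger and homeostatic receptors and parts of the cell division programme. On a log scale an interaction measures how far the LPS response itself differs when the extract is present, apart from what the extract does on its own. Genes that respond to either agent up to a shared limit give an interaction as well.

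Control replicate 1 was uneven. Probes printed several times on it varied with a coefficient of 48.9%, where the other 7 had 3.77% to 8.06%. It was marked for evaluation in the scan's quality summary, as was HF replicate 1. The spot grid of control replicate 1 was not marked good there, whereas those of the other 7 arrays were. Between the 2 arrays of a group the difference had an SD over genes of 0.99 log2 in control, but 0.27 under LPS, 0.48 under HF and 0.34 under both. The interactions that follow were therefore also computed with control replicate 2 alone, where the lone control array is assumed to vary like the other groups, and after a spatial correction that removed local unevenness and masked 13.5% of the spots of control replicate 1. After the correction the control SD was 0.53 log2. The correction does not address the spot grid, and whether spots were misplaced was not tested. On the slide, HF arrays filled 1 row and the rest the other, and LPS arrays had columns of their own. A shift shared by a whole row or column cancels in the interaction, but each group had positions of its own, and an effect of a position that differs from the row and column shifts cannot be told apart from the interaction. The 75th percentile of brightness was 247 to 286 without HF and 346 to 527 with HF before scaling, and 47.8% to 55.0% of the probes per array were well above background.

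With all 8 arrays, no gene reached an adjusted p under 0.05 for the interaction (limma with Benjamini-Hochberg adjustment, two-sided), 0 of 22383 or 0.0%. At an unadjusted p under 0.05 there were 2556 genes (11.4%), 1415 above 0 (6.32%) and 1141 below (5.1%). The smallest adjusted p was 0.0602, shared by 8 genes: Sfpq, AA467197, Cx3cr1, Slfn4, Mirt2, Gm5086, and the transcripts AK028718 and NAP030094-1, which had no RefSeq symbol here. With control replicate 2 alone, 35 genes (0.156%) passed, 17 above 0 (0.076%) and 18 below (0.0804%). After the spatial correction 265 genes (1.18%) passed, 158 above 0 (0.706%) and 107 below (0.478%). The count after the correction rested on several single arrays: it was 0 without either LPS array or either LPS+HF array, 1 without HF replicate 1, 14 without HF replicate 2, 67 without control replicate 1 and 2574 without control replicate 2. Before the correction, leaving out control replicate 2 gave 7944 genes, with the uneven array as the lone control. The single contrasts with all 8 arrays passed in 11.3% of the genes for LPS minus control, 0.715% for HF minus control, 6.28% for LPS+HF minus LPS and 1.11% for LPS+HF minus HF.

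In all, 28 genes passed in both settings, 13 above 0 and 15 below. Some of the 15 were above background with LPS alone and entered the test through that group. Of these, 22 had a RefSeq symbol. All 28 had the same sign in the fit with all 8 arrays and in each of the 8 fits without 1 array, although those fits share most of their arrays. After the correction all 28 also passed without control replicate 1 and 25 without control replicate 2, but 5 without HF replicate 2, and none without any 1 of the other 5 arrays. Both sides of the interaction, HF minus control and LPS+HF minus LPS, share no array. In the plot of these differences the 28 genes lie off the diagonal, as their selection by the interaction requires, and most lie near 0 for HF alone. Of the 28, 19 were well above background on at least 1 array of every group. Among these 19, 15 differed by less than 1 log2 between HF and control. Of those 15, 14 differed by at least 1 log2 between LPS+HF and LPS. A gene picked by the interaction that differs little with HF alone must differ more with LPS, so these counts are a description only.

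**Figure D1:**
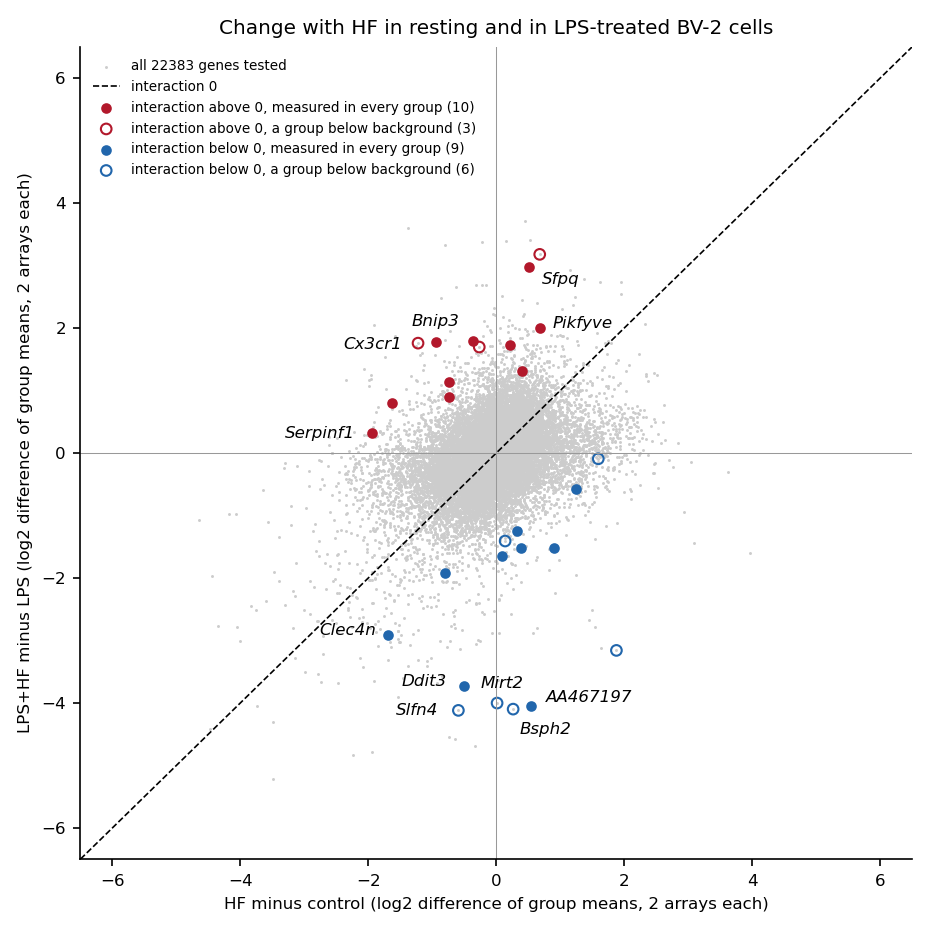
Fitted change with HF in LPS-treated cells (vertical, log2) against the change with HF in cells without LPS (horizontal, log2) for all 22383 genes tested, with the 28 genes that passed both with control replicate 2 alone and after the spatial correction in red (13 above 0) and blue (15 below 0). The dashed diagonal marks an interaction of 0, and open circles mark 9 genes with a group below background, whose fitted values there are not measured levels. AA467197 (0.55 without LPS, -4.05 with LPS) and Sfpq (0.51 and 2.97) lie far from the diagonal in opposite directions.

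The shape of the interaction was read from the LPS response without and with HF, using 1 log2 as the limit of a response and no test. Among the 215 genes that passed after the spatial correction and were above background in every group, 64 stood higher with LPS by a smaller margin when HF was present, and 102 stood lower with LPS by a smaller margin. The opposite shapes were fewer: 11 genes had a rise that was larger, or present, with HF, 3 had such a fall, and none turned from a rise to a fall. The remaining 35 responded to LPS by less than 1 log2 in both settings. In 12 genes each agent alone gave a difference of at least 1 log2 in the same direction and the combination went less far than the product, among them Mrc1 and Serpinf1. With HF alone 194 of the 215 genes differed from control by less than 1 log2. Of these, 131 differed by at least 1 log2 between LPS+HF and LPS. Since the genes were picked by the interaction, a small HF difference without LPS goes with a large difference with LPS. These counts therefore carry no weight. Among the 19 genes that passed in both settings the shapes were 8 smaller rises, 10 smaller falls and 1 larger fall.

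AA467197 had the largest interaction among the named genes measured in every group. It is also called Nmes1 and encodes a small protein of the mitochondrial respiratory chain that is induced in activated macrophages. Its levels (NM_001004174) were -3.57 and -3.59 in control, 4.18 and 4.21 with LPS, -3.13 and -2.94 with HF and 0.51 and -0.21 with LPS+HF. The LPS arrays lay far above the other groups, LPS+HF lay between them and the arrays without LPS, and no groups overlapped. LPS raised the gene 219-fold without HF and 9.09-fold with HF (adjusted p = 0.000187 and 0.00479), while HF alone gave a ratio of 1.46 (adjusted p = 0.28). The interaction was log2 -4.59 ± 0.35 (SE, 2 arrays per group), a 24.1-fold shortfall, with limma's adjusted p = 0.0602 over all 8 arrays, 0.0489 with control replicate 2 alone and 0.0195 after the spatial correction. It was -4.95 to -4.24 when any 1 array was left out.

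Ddit3, the transcription factor CHOP of the integrated stress response, was raised by LPS in cells without HF, and with HF no rise was detected. Its levels were 0.91 and 0.49 in control, 4.36 and 4.26 with LPS, 0.22 and 0.17 with HF and 0.82 and 0.35 with LPS+HF. Both LPS arrays stood more than 3 log2 above the other 6, and the arrays with LPS+HF overlapped those of control. Its rise with LPS was 12.2-fold (adjusted p = 0.00132), against a ratio of 1.31 for LPS+HF over HF (adjusted p = 0.76). LPS+HF lay 13.2-fold below LPS (adjusted p = 0.0056). The interaction was -3.23 ± 0.31, with adjusted p = 0.0925 over all arrays and 0.0182 after the spatial correction. Of the 32 measured genes of the integrated stress response list, Ddit3 alone passed, beside 0.478% of all genes below 0. The median of that list, 0.15, lay near that of all genes (0.02).

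Sqstm1, the autophagy receptor that binds ubiquitin and is a target of the antioxidant factor NRF2, depended on the control array used. Its levels were 5.13 and 3.20 in control, 5.80 and 5.72 with LPS, 3.46 and 3.27 with HF and 3.88 and 3.78 with LPS+HF, so the 2 control arrays differed by almost 2 log2 and control replicate 1 lay nearer to the LPS arrays than to its own replicate. The interaction was -1.13 ± 0.81 with all arrays (adjusted p = 0.622), -2.09 with control replicate 2 alone (adjusted p = 0.0463) and -2.11 after the correction (adjusted p = 0.0186). Clec4n, the C-type lectin Dectin-2 that binds fungal mannans, stood at 1.72 and 0.70 in control, 3.29 and 3.33 with LPS, -0.44 and -0.53 with HF and 0.41 and 0.39 with LPS+HF. LPS raised it 4.29-fold (adjusted p = 0.0147), and LPS+HF lay 7.51-fold below LPS (adjusted p = 0.0119), under the control level. Its interaction was -1.21 ± 0.45 with all arrays and -1.51 after the correction (adjusted p = 0.0303).

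For Cep162, a protein of centrioles and cilia, the arrays read 0.56 and 0.56 in control, 2.55 and 2.64 with LPS, 0.88 and 0.90 with HF and 1.38 and 1.33 with LPS+HF. LPS+HF lay between LPS and the other groups without overlap, and LPS raised it 4.11-fold without HF (adjusted p = 0.00132), where LPS+HF over HF was 1.38 (adjusted p = 0.252). Mfap3l, a membrane glycoprotein, and Spata5l1, an ATPase of ribosome maturation, gave interactions of -1.73 ± 0.19 and -1.91 ± 0.32. In both, LPS+HF lay within 0.5 log2 of the HF arrays. The unnamed transcript AK028718 stood 4.71-fold higher with LPS than in control (adjusted p = 0.00147), with an interaction of -2.43 ± 0.20.

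In 6 genes below 0 at least 1 group was wholly below background, so the fold differences with that group are lower bounds. Slfn4, a Schlafen family gene of activated macrophages, read -6.02 and -5.78 in control, -2.44 and -2.42 with LPS, -6.35 and -6.63 with HF and -6.46 and -6.64 with LPS+HF, and the LPS arrays alone were above background. LPS raised it at least 4.28-fold (adjusted p = 0.000626), and LPS+HF lay at least 4.62-fold below LPS (adjusted p = 0.00402). Mirt2, a long non-coding RNA of LPS-treated macrophages, read -6.78 and -6.24 in control, -2.67 and -2.41 with LPS, -6.37 and -6.62 with HF and -6.45 and -6.64 with LPS+HF. It was above background with LPS alone as well, at least 3.97-fold over control, and at least 4.28-fold over LPS+HF. Bsph2, a sperm-binder homologue, had the same form with bounds of 4.61-fold and 4.97-fold. Mzb1, an endoplasmic reticulum protein of B cells, had bounds of 1.52-fold and 1.64-fold. The probe NAP030094-1, which has no gene name here, was above background with LPS alone too. AK020696 was below background in control, and read -5.11 and -6.07 in control, -3.69 and -3.68 with LPS, -4.08 and -3.91 with HF and -3.87 and -3.69 with LPS+HF. For Slfn4, Mirt2, Bsph2, Mzb1 and NAP030094-1 no bound on the interaction could be given, since 3 groups were below background. These genes entered the test through the LPS group alone. Their adjusted p and their place among the 15 genes below 0 therefore carry no weight.

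Sfpq had the smallest interaction p above 0 among the named genes measured in every group. It encodes a splicing factor of paraspeckles, the nuclear bodies that hold back RNA. Its levels (NM_023603) were 4.01 and 3.94 in control, 0.96 and 1.04 with LPS, 4.46 and 4.52 with HF and 3.88 and 4.06 with LPS+HF. The 2 LPS arrays lay near 1 and the other 6 near 4, with LPS+HF overlapping control and both below HF alone. LPS lowered Sfpq 7.86-fold without HF (adjusted p = 0.000486), while LPS+HF lay 1.43-fold below HF (adjusted p = 0.238). HF alone gave a ratio of 1.43 (adjusted p = 0.154). The interaction was log2 2.46 ± 0.19, 5.49-fold, with adjusted p = 0.0602 over all arrays, 0.0463 with control replicate 2 alone and 0.0136 after the spatial correction, and 2.37 to 2.55 without any 1 array.

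Other RNA-processing genes passed above 0 after the spatial correction; they were picked after their values were seen, so their number carries no weight. Pspc1, a partner of Sfpq in paraspeckles, read 1.12 and 1.02 in control, 0.17 and 0.19 with LPS, 1.06 and 1.05 with HF and 1.09 and 1.13 with LPS+HF. Its LPS arrays lay below the other 6, by less than 1 log2. Those 6 stood between 1.02 and 1.13, and the interaction was 0.94 ± 0.18 (adjusted p = 0.0445 after the correction). The serine/arginine-rich splicing factors Srsf5 and Srsf6 had interactions of 1.08 ± 0.21 and 1.77 ± 0.41. LPS lowered Srsf6 4.62-fold (adjusted p = 0.00976), and LPS+HF lay 3.5-fold above LPS (adjusted p = 0.0271). Hnrnpu, a scaffold protein of the nuclear matrix, had an interaction of 1.47 ± 0.40. Its control arrays read 4.29 and 3.45, on either side of the HF arrays.

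**Figure D2:**
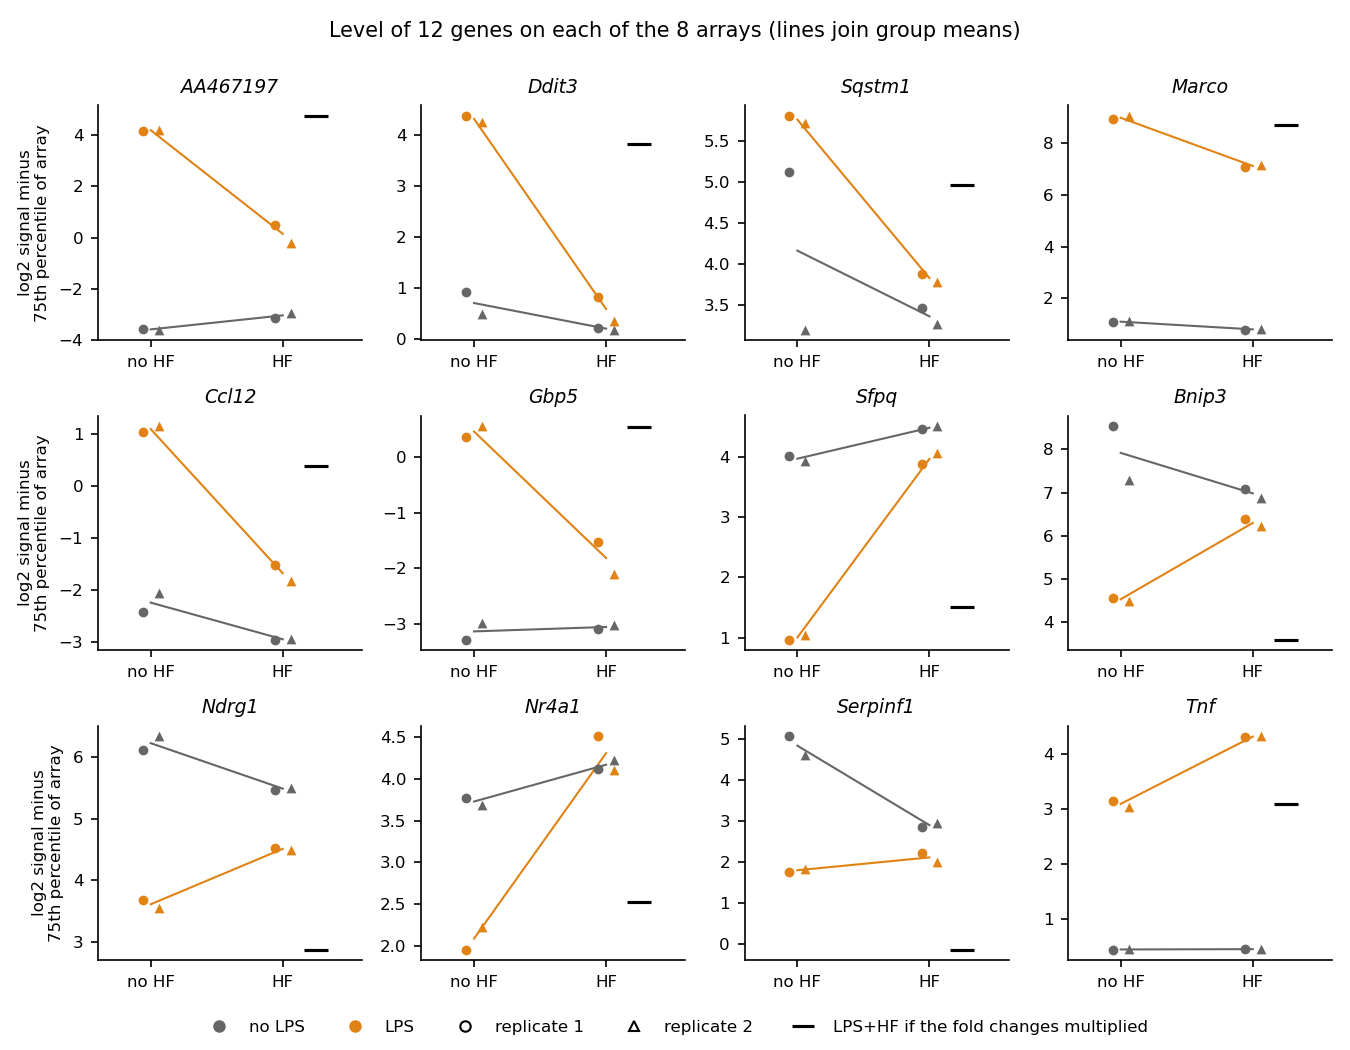
Log2 signal minus the array's 75th percentile of 12 genes on the 8 arrays, without HF (left) and with HF (right) in each panel, grey without LPS and orange with LPS; circles are replicate 1, triangles replicate 2, and lines join group means. The black dash is the LPS+HF level that the product of the separate fold changes would give. LPS+HF lies under the dash in the first 6 genes and over it in the last 6, and the 2 control arrays stand apart in Sqstm1 (5.13 and 3.20) and Bnip3 (8.54 and 7.30).

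Genes of glycolysis and the hypoxia response lay above 0 in 24 of 35 measured members with all 8 arrays, beside 11575 of all 22383 genes. In this pathway the oxygen-sensing prolyl hydroxylases mark the factor HIF for destruction, and HIF that escapes binds the core motif ACGTG in front of genes for glucose uptake, lactate export and the removal of mitochondria. Of 35 measured genes, 7 passed after the spatial correction, all above 0, beside 0.706% of all genes in that direction: Bnip3, P4ha2, Egln1, Ndrg1, Pdk1, Higd1a and Slc16a3. With control replicate 2 alone, 27 of the 35 lay above 0, beside 11063 of all 22383 genes. The interaction there was 2.09 for Bnip3, 1.76 for Ndrg1 and -2.61 for Eno2. At an unadjusted p under 0.05, 16 lay above 0 and 2 below, beside 6.32% and 5.1% of all genes. Shorter lists had passed members at a similar rate but in both directions, 3 of 15 chemokines and 4 of 21 cytokines. The median interaction was 0.47, beside 0.02 for all genes tested, and 0.25 to 0.68 over 34 other settings. The median LPS response of the list was -0.81 log2 without HF and -0.22 with HF, and the median difference with HF was -0.18 without LPS and 0.27 with LPS.

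Bnip3, a receptor for the removal of mitochondria and a target of HIF, read 8.54 and 7.30 in control, 4.56 and 4.49 with LPS, 7.08 and 6.88 with HF and 6.38 and 6.22 with LPS+HF. The LPS arrays were lowest, LPS+HF lay between LPS and HF, and control replicate 1 stood 1.2 log2 above replicate 2. LPS lowered it 10.5-fold (adjusted p = 0.00655), whereas LPS+HF lay 1.61-fold under HF without overlap (adjusted p = 0.748, and 0.119 after the correction). The first of these p-values uses a spread that includes the uneven control arrays, so it does not show that the fall was absent with HF. The interaction was 2.71 ± 0.54 with all arrays (adjusted p = 0.205), 2.09 with control replicate 2 alone (adjusted p = 0.0495) and 2.33 after the correction (adjusted p = 0.0195). Ndrg1, a stress-responsive gene raised by low oxygen, read 6.12 and 6.34 in control, 3.67 and 3.54 with LPS, 5.47 and 5.51 with HF and 4.53 and 4.49 with LPS+HF. Its 4 groups did not overlap and stood in the order control, HF, LPS+HF and LPS. LPS lowered Ndrg1 6.16-fold without HF and 1.97-fold with HF (adjusted p = 0.00097 and 0.0453), an interaction of 1.64 ± 0.20.

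Egln1, the main oxygen-sensing prolyl hydroxylase, read 0.80 and 0.21 in control, -1.96 and -1.94 with LPS, 0.17 and 0.06 with HF and -0.48 and -0.35 with LPS+HF. Here too the LPS arrays were lowest, by more than 1 log2, and LPS+HF lay just under HF. LPS lowered it 5.46-fold (adjusted p = 0.00349), and LPS+HF lay 2.9-fold above LPS (adjusted p = 0.0201). P4ha2, a subunit of the enzyme that hydroxylates collagen, read -0.30 and -0.57 in control, -2.38 and -2.31 with LPS, -1.01 and -1.08 with HF and -0.57 and -1.05 with LPS+HF. LPS lowered it 3.77-fold (adjusted p = 0.00553), and its LPS+HF arrays overlapped those of HF. Both had interactions close to 2 log2, 1.92 ± 0.30 and 2.15 ± 0.29.

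The other 3 passed members had smaller interactions. Pdk1, a kinase that keeps pyruvate out of the mitochondrion, had an interaction of 1.08 ± 0.26, Higd1a, a mitochondrial protein induced by low oxygen, 1.01 ± 0.19, and Slc16a3, the lactate exporter, 0.99 ± 0.18. LPS lowered Pdk1 2.64-fold, Higd1a 2.46-fold and Slc16a3 2.35-fold (adjusted p = 0.00985, 0.00487 and 0.00487). Ankrd37 had the highest value of the list after the correction, 2.72, but did not pass (adjusted p = 0.243). Pfkfb3, which makes the allosteric activator of phosphofructokinase, lay lowest after the correction at -0.95 and did not pass either (adjusted p = 0.051). Hif1a itself had an interaction of -0.72 with all arrays. Fam162a and Gys1, which are regulated by HIF and not on the list, were added after their values were seen. Both passed after the correction, with interactions of 1.06 ± 0.20 and 1.00 ± 0.18 over all arrays.

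**Figure D3:**
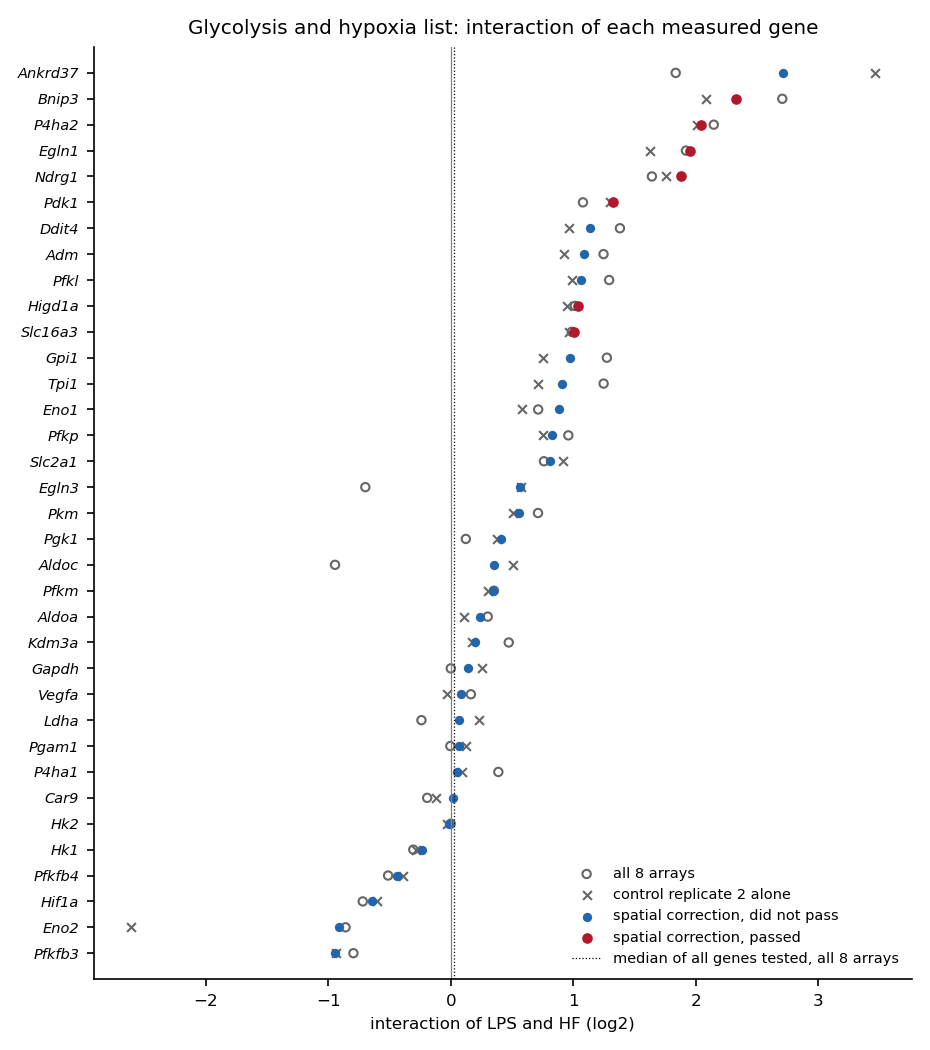
Interaction of LPS and HF (log2) for each of the 35 measured genes of the glycolysis and hypoxia list, sorted by the value after the spatial correction: open circles all 8 arrays, crosses control replicate 2 alone, filled points the spatial correction (red passed, blue did not). The 7 passed genes lie between 1.01 and 2.33 after the correction, to the right of the dotted median of all genes (0.02); Aldoc (-0.95, 0.51 and 0.35) and Egln3 (-0.70, 0.58 and 0.57) change sign when control replicate 1 is left out.

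The promoters of 4 passed members are shown because the HIF core motif can be read in them. RefSeq promoters (build GRCm38.p6, 250 bases before to 50 after the start of the gene) were at hand for 34 of the 35 genes and for 11036 of all genes tested. The motif ACGTG, searched on both strands (CACGT on the other) and overlapping the E-box CACGTG, was chosen after the results were seen. It stood in 24 of the 34 promoters (70.6%), in 5 of the 6 of passed members, and in 27.8% of the promoters of all genes tested. The list was written as genes of glycolysis and the hypoxia response, so a high share follows from the list and says nothing about the interaction. A match is a run of letters and not a binding site. Capitals mark it in Bnip3 (chr7:138909457-138909756, minus strand, first match at -108 from the start), Egln1 (chr8:124949205-124949504, minus strand, at -68), P4ha2 (chr11:54100674-54100973, plus strand, first match at -78) and Higd1a (chr9:121857747-121858046, minus strand, at 43).
Bnip3: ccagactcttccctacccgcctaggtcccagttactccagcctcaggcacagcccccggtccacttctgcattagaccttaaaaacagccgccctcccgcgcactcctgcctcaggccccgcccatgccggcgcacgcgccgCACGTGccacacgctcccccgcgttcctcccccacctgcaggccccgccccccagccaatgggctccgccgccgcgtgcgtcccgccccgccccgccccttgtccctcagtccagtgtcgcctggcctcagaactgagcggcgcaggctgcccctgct
Egln1: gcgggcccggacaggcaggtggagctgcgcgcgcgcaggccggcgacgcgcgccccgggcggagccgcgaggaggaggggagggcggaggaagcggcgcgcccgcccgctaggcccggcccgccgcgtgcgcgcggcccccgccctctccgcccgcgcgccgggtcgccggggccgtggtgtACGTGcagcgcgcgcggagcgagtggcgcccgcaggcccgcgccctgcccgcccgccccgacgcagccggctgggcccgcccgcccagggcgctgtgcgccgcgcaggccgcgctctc
P4ha2: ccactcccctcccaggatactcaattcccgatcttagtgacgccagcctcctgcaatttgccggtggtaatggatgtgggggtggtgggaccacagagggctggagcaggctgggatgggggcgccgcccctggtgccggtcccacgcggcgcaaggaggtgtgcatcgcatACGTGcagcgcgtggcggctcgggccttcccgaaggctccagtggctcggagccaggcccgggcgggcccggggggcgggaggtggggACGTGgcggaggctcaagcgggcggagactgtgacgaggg
Higd1a: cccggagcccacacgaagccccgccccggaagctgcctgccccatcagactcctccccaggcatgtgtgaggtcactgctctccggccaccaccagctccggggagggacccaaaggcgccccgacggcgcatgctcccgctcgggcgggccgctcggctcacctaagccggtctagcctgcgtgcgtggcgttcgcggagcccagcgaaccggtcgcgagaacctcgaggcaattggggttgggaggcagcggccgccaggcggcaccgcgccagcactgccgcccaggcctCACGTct
Among all 158 genes that passed above 0, 33.3% of the 90 promoters at hand held the motif, and among the 107 below 0, 18.8% of 64. The AP-1 site TGACTCA, on both strands, stood in 4.44% and 9.38% of these promoters, against 4.78% of all.

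Mitosis genes had the highest median of the lists with all 8 arrays, 0.51 over 41 measured members and 0.35 to 0.72 over the other settings. After the spatial correction their median was 0.45, below glycolysis and hypoxia (0.56) and immediate early genes (0.49). Of the 41 mitosis genes, 2 passed after the correction, Ccnb2 and Cdc20, both above 0, where 0.706% of all genes passed in that direction. At an unadjusted p under 0.05 there were 12 above 0 and none below, beside 6.32% and 5.1% of all genes. The median LPS response was -0.52 log2 without HF and -0.02 with HF, and the median HF difference 0.55 without LPS and 1.00 with it. Cdc20, the activator of the ubiquitin ligase that ends mitosis, read 4.74 and 4.97 in control, 3.77 and 3.73 with LPS, 5.30 and 5.51 with HF and 5.26 and 5.35 with LPS+HF. The LPS arrays were about 1 log2 below control, and LPS+HF overlapped HF, above control. LPS lowered it 2.15-fold (adjusted p = 0.0116), and the interaction was 1.00 ± 0.22 (adjusted p = 0.0431 after the correction). Ccnb2, a mitotic cyclin, gave 1.17 ± 0.40 with all arrays and 1.48 after the correction (adjusted p = 0.0324). Cdca3, a cell division gene added after its values were seen, gave 1.03 ± 0.20. Fewer dividing cells and less of these RNAs per cell cannot be told apart here. DNA replication genes had a median of 0.02, and none of the 41 measured passed.

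Interferon-stimulated genes lay below 0, with a median of -0.58 over 52 measured members and -0.81 to -0.30 over the other settings. After the spatial correction 3 passed, all below 0, where 0.478% of all genes passed in that direction: Slfn4, Gbp5 and Oasl1. Slfn4 was above background with LPS alone and entered the test through that group, so its interaction has no bound and its place among the 3 carries no weight. The spots of 13 of the 52 were masked on control replicate 1, so for these the corrected value rests on control replicate 2. The median LPS response was 1.95 log2 without HF and 1.22 with HF. The median HF difference of the list was -1.01 log2 without LPS already, beside -1.86 with LPS. Gbp5, an interferon-induced GTPase, read -3.29 and -2.99 in control, 0.37 and 0.56 with LPS, -3.09 and -3.02 with HF and -1.52 and -2.11 with LPS+HF. LPS raised it 12.1-fold without HF (adjusted p = 0.0015), while HF alone gave a ratio of 1.06, and the interaction was -2.36 ± 0.33 (adjusted p = 0.0324 after the correction). Oasl1, an inhibitor of Irf7 translation, read 3.03 and 5.51 in control, 8.25 and 8.28 with LPS, 3.49 and 4.67 with HF and 5.83 and 5.53 with LPS+HF, and its 2 control arrays were 2.5 log2 apart. The Oasl1 interaction was -2.39 ± 1.14 with all arrays (adjusted p = 0.501) and -1.15 with control replicate 2 alone (adjusted p = 0.365).

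Other members lay at or above 0 without passing. Rtp4, an interferon-induced chaperone of receptors, had an interaction of 1.58, with differences of -4.36 for HF alone and -2.77 for HF with LPS. Ifi44, a microtubule-associated interferon target, had an interaction of 0.99. Cxcl10, an interferon-induced chemokine, was at -0.04, its LPS response being 5.79 log2 without HF and 5.74 with HF. Ifi27, an interferon-induced mitochondrial protein that is not among these 52, passed above 0 after the correction (1.97, adjusted p = 0.0487), but its control arrays read 4.51 and 7.28, and with all 8 arrays the value was 0.60 ± 1.15.

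Class I antigen presentation was also below 0, with a median of -0.47 over 17 measured genes and -0.57 to -0.18 over the other settings. Tap1, which pumps peptides into the endoplasmic reticulum, was the member that passed, below 0, beside 0.478% of all genes. It read 0.50 and 1.20 in control, 2.85 and 2.67 with LPS, 0.90 and 0.93 with HF and 1.43 and 1.31 with LPS+HF. LPS raised it 3.76-fold without HF (adjusted p = 0.00907). LPS+HF over HF was 1.37 without overlap (adjusted p = 0.728), where the p uses a spread that includes the uneven control arrays. The interaction was -1.46 ± 0.35 (adjusted p = 0.0431 after the correction). HF alone gave a median of -0.09 log2 for this list. Among its members that did not pass, H2-D1, a class I heavy chain, had -1.18 and Tap2 -0.87.

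Cytokines split in direction. Tnf, tumour necrosis factor, read 0.43 and 0.44 in control, 3.15 and 3.05 with LPS, 0.44 and 0.45 with HF and 4.32 and 4.33 with LPS+HF. The 4 arrays without LPS stood between 0.43 and 0.45, and LPS+HF lay above LPS. LPS raised Tnf 6.32-fold without HF and 14.8-fold with HF (adjusted p = 0.000504 and 0.000384), and HF alone gave a ratio of 1.00. The interaction was 1.22 ± 0.18, with adjusted p = 0.147 over all arrays, 0.063 with control replicate 2 alone and 0.0326 after the spatial correction. Tnf was among the 11 genes with a larger rise under HF.

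Il6, Il1b and Lcn2 passed below 0 after the correction. Il6, interleukin 6, read -6.11 and -6.36 in control, 1.16 and 1.40 with LPS, -6.30 and -6.68 with HF and -1.55 and -1.90 with LPS+HF, and both groups without LPS were below background. Its level with LPS+HF was 8.04-fold below that with LPS (adjusted p = 0.00787), and the fitted interaction of -2.75 ± 0.31 has no bound. Il1b, interleukin 1 beta, read -3.88 and -4.48 in control, 1.76 and 2.17 with LPS, -4.22 and -4.04 with HF and -0.30 and -0.43 with LPS+HF, with control below background. Its interaction was at least 4.62-fold below the product of the separate effects, and LPS+HF lay 5.03-fold below LPS (adjusted p = 0.0115). Lcn2, the iron-sequestering lipocalin, read -0.88 and -1.14 in control, 6.66 and 6.64 with LPS, -0.62 and -0.92 with HF and 5.48 and 5.07 with LPS+HF. LPS raised it 202-fold without HF and 65.8-fold with HF, an interaction of -1.62 ± 0.29 (adjusted p = 0.0442 after the correction). The cytokine list as a whole had a median of -0.13 over 21 genes, which changed sign in 13 of the 34 other settings, so no direction is given for it.

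Chemokines split as well, with 2 passed above 0 and 1 below among 15 measured, beside 0.706% and 0.478% of all genes. Cxcl2, a neutrophil attractant, read -5.88 and -6.30 in control, -3.38 and -2.99 with LPS, -6.24 and -6.58 with HF and -0.26 and -0.73 with LPS+HF, and was below background without LPS. LPS+HF lay 6.46-fold above LPS (adjusted p = 0.011). With both groups without LPS below background, the fitted interaction of Cxcl2 has no bound. Ccl12, a monocyte attractant, read -2.42 and -2.05 in control, 1.05 and 1.16 with LPS, -2.95 and -2.93 with HF and -1.51 and -1.83 with LPS+HF. LPS raised Ccl12 10.1-fold without HF and 2.41-fold with HF (adjusted p = 0.0011 and 0.0475), an interaction of -2.07 ± 0.27 (adjusted p = 0.0304 after the correction). Ccl6 was lowered 2.52-fold by LPS (adjusted p = 0.0141), and LPS+HF stood 2.16-fold above LPS (adjusted p = 0.0346).

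The enzymes often measured in this kind of experiment did not pass for the interaction in any of the 3 settings. Nos2, the inducible nitric oxide synthase, read 1.91 and 1.93 in control, 4.67 and 4.88 with LPS, 0.73 and 0.96 with HF and 3.59 and 3.17 with LPS+HF. LPS raised it 7.25-fold without HF and 5.82-fold with HF, and the interaction was -0.32 ± 0.27 (adjusted p = 0.667). Ptgs2, cyclooxygenase-2, gave 1.09 ± 0.31 (adjusted p = 0.104 after the correction), with LPS and LPS+HF overlapping at 0.63 and 0.92 and 0.88 and 0.54. Arg1, arginase, read 4.75 and 4.87 in control, -2.48 and -2.52 with LPS, 0.25 and 0.49 with HF and -3.79 and -5.15 with LPS+HF. LPS and HF each lowered Arg1, 159-fold and 21.7-fold (adjusted p = 0.0011 and 0.0245), and LPS+HF lay 28.7-fold below HF (adjusted p = 0.00694). Its interaction was 2.47 ± 0.59 (adjusted p = 0.0841 after the correction), and 1 of its LPS+HF arrays was below background. Actb, beta-actin, gave 0.34 ± 0.28.

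Regulators of NF-kB had a median of -0.05. After the spatial correction 2 of the 32 measured passed, Traf1 and Dusp4, both below 0, beside 0.478% of all genes. Traf1, an adaptor of the tumour necrosis factor receptors, read -1.86 and -2.17 in control, 3.14 and 3.24 with LPS, -1.74 and -1.94 with HF and 2.08 and 1.72 with LPS+HF. LPS raised it 36.9-fold without HF and 13.3-fold with HF, with an interaction of -1.47 ± 0.27 (adjusted p = 0.0395 after the correction). Dusp4, a phosphatase of MAP kinases, read 2.46 and 2.31 in control, 3.09 and 2.88 with LPS, 1.82 and 1.67 with HF and 1.23 and 1.16 with LPS+HF, and LPS+HF lay 3.44-fold below LPS (adjusted p = 0.00882). Immediate early genes had a median of 0.44 over 23 genes and 0.31 to 0.70 over the other settings. Of these, 2 passed above 0, Nr4a1 and Ier3, beside 0.706% of all genes. Nr4a1, a nuclear receptor of the early response, read 3.78 and 3.68 in control, 1.95 and 2.22 with LPS, 4.12 and 4.23 with HF and 4.51 and 4.11 with LPS+HF. The LPS arrays were lowest and LPS+HF overlapped HF. LPS lowered Nr4a1 3.13-fold (adjusted p = 0.00693), and the interaction was 1.78 ± 0.27 (adjusted p = 0.0365 after the correction). Ier3 depended on control replicate 1, which was masked: 0.73 ± 0.53 with all arrays and 1.34 after the correction (adjusted p = 0.0487).

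Receptors of the phagocyte surface included Marco, with the largest measured LPS rise named here. Marco, a scavenger receptor for bacteria and particles, read 1.06 and 1.12 in control, 8.93 and 9.05 with LPS, 0.78 and 0.81 with HF and 7.09 and 7.16 with LPS+HF. LPS raised it 239-fold without HF and 80.5-fold with HF (adjusted p = 2.67e-05 and 0.000102), and the interaction was -1.57 ± 0.18 (adjusted p = 0.0304 after the correction). Mrc1, the mannose receptor, read -0.16 and 0.26 in control, -2.25 and -2.18 with LPS, -1.80 and -1.64 with HF and -1.74 and -2.06 with LPS+HF. LPS lowered Mrc1 4.81-fold and HF alone 3.41-fold (adjusted p = 0.00367 and 0.031), and with both it lay 1.13-fold under HF (adjusted p = 0.933). The 6 treated arrays lay between -2.25 and -1.64, all below control. The interaction was 2.09 ± 0.29 (adjusted p = 0.0195 after the correction).

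Cx3cr1, the fractalkine receptor that marks microglia, read -2.12 and -1.92 in control, -4.35 and -4.31 with LPS, -3.32 and -3.17 with HF and -2.53 and -2.61 with LPS+HF, with LPS below background. LPS lowered it at least 4.5-fold and HF alone 2.33-fold (adjusted p = 0.00136 and 0.0326), and LPS+HF was at least 3.08-fold above LPS (adjusted p = 0.00868). Its interaction was at least 7.18-fold above the product, with adjusted p = 0.0602 over all arrays and 0.0108 after the correction. C1qc, a chain of complement C1q, read 3.81 and 3.61 in control, 2.93 and 2.87 with LPS, 1.18 and 1.30 with HF and 2.32 and 2.52 with LPS+HF. Each agent alone lowered C1qc (LPS 1.76-fold, HF 5.53-fold, adjusted p = 0.0259 and 0.012), but LPS+HF lay 2.26-fold above HF (adjusted p = 0.0286). The interaction was 1.99 ± 0.21 (adjusted p = 0.0269 after the correction). C3ar1, the receptor for a fragment of complement C3 and added after its values were seen, gave 2.05 ± 0.43. The list of microglia and macrophage markers had a median of 0.32 over 18 genes.

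Among further surface and secreted proteins, Serpinf1 and Slc13a3 had smaller falls, and the fitted interactions of Mmp2 and Slamf7 lay below 0. Serpinf1, pigment epithelium-derived factor, read 5.08 and 4.62 in control, 1.76 and 1.84 with LPS, 2.86 and 2.95 with HF and 2.23 and 2.01 with LPS+HF. LPS lowered it 8.25-fold, HF alone 3.84-fold (adjusted p = 0.00147 and 0.0246), and LPS+HF stood close to LPS, above the product of both falls. The interaction was 2.26 ± 0.28 (adjusted p = 0.03 after the correction). Slc13a3, a sodium-coupled carrier of dicarboxylates, read 1.94 and 2.13 in control, -0.20 and -0.05 with LPS, 1.24 and 1.34 with HF and 1.09 and 0.94 with LPS+HF. LPS lowered it 4.46-fold (adjusted p = 0.00196), LPS+HF lay 2.2-fold above LPS (adjusted p = 0.0174), and the interaction was 1.87 ± 0.21. Mmp2, a matrix protease, was above background with LPS alone, at least 2.42-fold over LPS+HF (adjusted p = 0.00868). It entered the test through that group, so its passing carries no weight. Slamf7, a receptor of leukocytes, read -5.34 and -5.43 in control, 0.85 and 0.89 with LPS, -5.47 and -6.57 with HF and -3.58 and -3.85 with LPS+HF. It was 23.9-fold lower with LPS+HF than with LPS (adjusted p = 0.00787). Both groups without LPS were below background, so its fitted interaction has no bound. Cd83, a marker of dendritic cell maturation, was masked on control replicate 1 and gave 0.17 ± 0.92 with all arrays and 1.34 after the correction (adjusted p = 0.048).

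Antioxidant genes under NRF2 had a median of -0.15, and 2 of 38 passed below 0, Sqstm1 and Gclm, beside 0.478% of all genes. Gclm, a subunit of the first enzyme of glutathione synthesis, read 1.29 and 0.62 in control, 2.54 and 2.56 with LPS, 1.15 and 1.13 with HF and 1.80 and 1.77 with LPS+HF. LPS raised it 3.03-fold (adjusted p = 0.0124), and the interaction was -0.95 ± 0.32 (adjusted p = 0.0431 after the correction). Hmox1, haem oxygenase, read 5.47 and 5.61 in control, 7.42 and 7.30 with LPS, 5.42 and 5.38 with HF and 5.84 and 5.47 with LPS+HF, with an interaction of -1.56 ± 0.24 that did not pass (adjusted p = 0.164 with all arrays, 0.0674 after the correction). Its LPS arrays lay above the other 6. Slc30a1, a zinc exporter, was the passed member of the 10 metallothionein and zinc transport genes, at -1.46 ± 0.23. Zmat3, an RNA-binding target of p53, was that of the 22 p53 targets, at -1.01 ± 0.19. Both lie below 0, where 0.478% of all genes passed.

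No member passed in either direction among oxidative phosphorylation, DNA replication, the unfolded protein response, heat shock chaperones, cholesterol synthesis, cholesterol efflux and lipid droplets, class II antigen presentation, itaconate and arginine enzymes, or cell death regulators. Oxidative phosphorylation had a median of 0.32 over 39 genes, and 0.15 to 0.40 over the other settings; Cox5b gave 0.48 ± 0.19 and Ndufs1 0.94 ± 0.37. Acod1, which makes itaconate, read 1.89 and 2.18 in control, 7.90 and 8.07 with LPS, 1.80 and 1.72 with HF and 6.59 and 6.51 with LPS+HF, an interaction of -1.16 ± 0.22 (adjusted p = 0.051 after the correction), and Ass1, which feeds arginine synthesis, gave -0.97 ± 0.20. In the other lists the 2 members of smallest p were Atf6 (0.91) and Ero1a (1.29) for the unfolded protein response, Dnajb1 (0.65) and Dnaja1 (0.54) for chaperones, and Lss (-1.07) and Idi1 (0.82) for cholesterol synthesis. Fasn (0.97) and Pparg (0.43) were named for lipid storage, H2-Oa (1.13) and Cd74 (0.92) for class II, Mlkl (-0.85) and Gsdme (0.82) for cell death, and Pole2 (0.90) and Gins1 (0.71) for DNA replication.

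**Figure D4:**
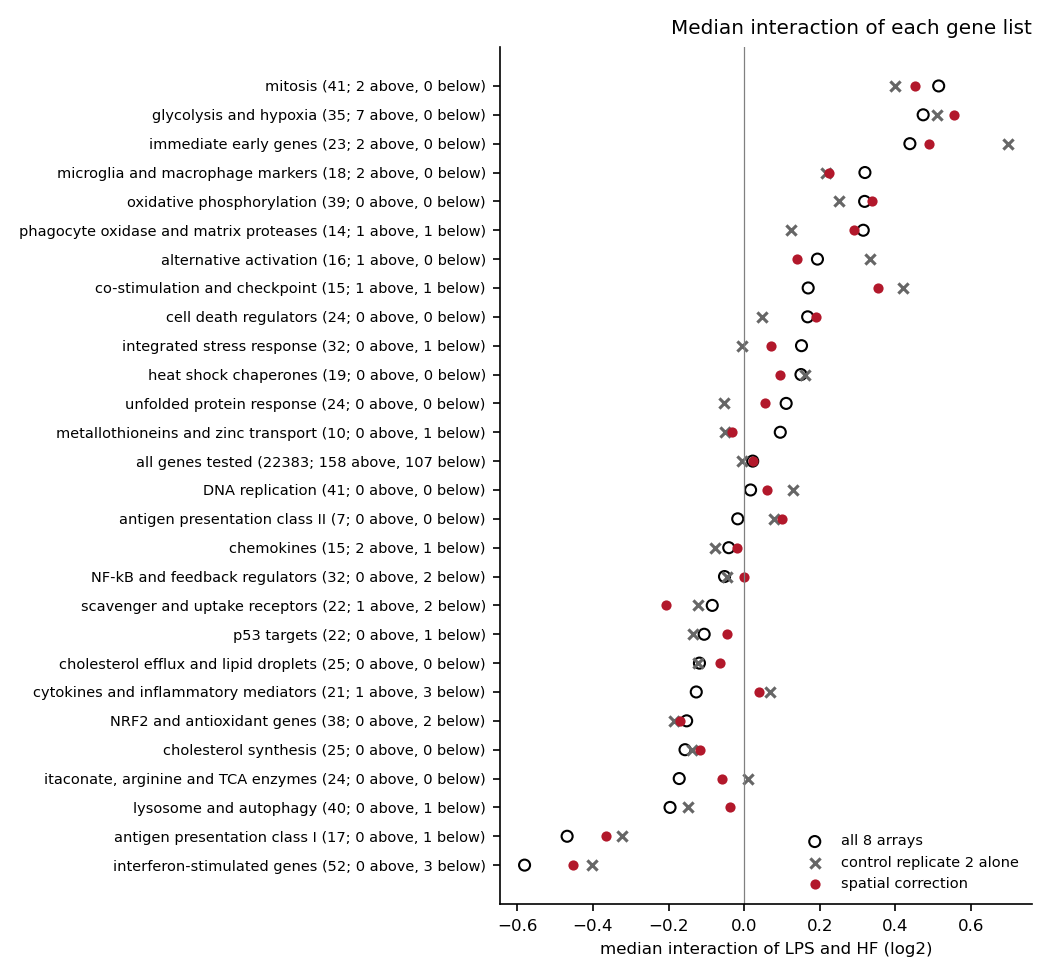
Median interaction (log2) of each gene list over its measured members, for all 8 arrays (open circles), control replicate 2 alone (crosses) and the spatial correction (red points); brackets give the number measured and the numbers that passed above and below 0 after the correction. Mitosis (0.51), glycolysis and hypoxia (0.47) and immediate early genes (0.44) lie highest and interferon-stimulated genes (-0.58) and class I presentation (-0.47) lowest for all 8 arrays, beside 0.02 for all genes.

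Outside the lists, the largest interactions among genes measured in every group included the following. Above 0, Apold1, a vesicle protein, read 1.64 and 1.66 in control, -2.70 and -2.90 with LPS, 1.27 and 1.65 with HF and -0.69 and -0.67 with LPS+HF, a fall of 21.8-fold with LPS and 4.4-fold with LPS+HF over HF (adjusted p = 0.000362 and 0.00576). Gatad2a, a subunit of the NuRD chromatin complex, gave 1.81 ± 0.19, but the mean over its probes gave -0.09, so its probes disagreed. St3gal6, a sialyltransferase, gave 1.59 ± 0.49 and was masked on control replicate 1. Pikfyve, an endosomal lipid kinase, and Prelid2 passed in both settings that set control replicate 1 aside or corrected it (2.14 and 1.82 after the correction), but gave 1.32 ± 0.62 and 0.92 ± 0.76 with all arrays, where their control arrays read -3.22 and -1.77, and 2.65 and 4.48.

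Below 0, Hid1, a protein of secretory vesicle formation, gave -2.69 ± 0.35, Procr, the protein C receptor, -1.86 ± 0.33, and St3gal1, another sialyltransferase, -1.87 ± 0.24. LPS raised these genes 6.29-fold, 9.74-fold and 4.66-fold without HF (adjusted p = 0.00396, 0.00206 and 0.00253). With HF present, the LPS differences were -0.04, 1.42 and 0.35 log2, and none passed. Grifin, a galectin-related lens protein, gave -2.27 ± 0.50. Among genes with a group below background, Grhl1, an epithelial transcription factor, was at least 8.2-fold below the product. Only in the LPS group was it above background on both arrays. It entered the test through that group, so its passing carries no weight. Klra9, a natural killer receptor, was at least 4.25-fold below the product. Dmxl1 was at least 3.04-fold and the formin Fhod3 at least 1.81-fold above it. Pianp and the transcript Gm11696, which passed in both settings, were at least 1.48-fold and 2.48-fold above it, with LPS below background.

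The transcript AK007918 was the exception in shape among the 19. It read -2.69 and -2.79 in control, -2.32 and -2.31 with LPS, -1.42 and -1.57 with HF and -2.92 and -2.86 with LPS+HF, highest with HF alone. HF raised it 2.37-fold without LPS (adjusted p = 0.0276), LPS+HF lay 2.62-fold below HF (adjusted p = 0.0103), and the interaction was -1.82 ± 0.19. Gm5086, a non-coding transcript, was lowered by each agent, 9.65-fold by LPS and 3.1-fold by HF (adjusted p = 0.000468 and 0.023), with an interaction of 2.44 ± 0.21. The unnamed transcripts A_55_P2097048 and TC1699244 gave 2.15 ± 0.21 and 1.52 ± 0.18, each lowest with LPS.

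Probes bright only on arrays with HF were unevenly placed, which is why some were left aside. Of 3001 such probes, 1279 (42.6%) lay in spot rows 1 to 70, which hold 18.1% of all probes. By contrast, 12.4% of the 2119 probes bright only on arrays without HF lay there. The share of probes bright only with HF fell from 15.3% in rows 1 to 35 to 10.2% just inside the limit (rows 36 to 70), was 8.41% just outside it (rows 71 to 105) and about 1% in the last rows. The filter on dim probes had already removed most, so 113 probes were left aside. Leaving aside such probes in every row gave 259 genes after the spatial correction in place of 265, and keeping those of rows 1 to 70 gave 329. All 28 genes passed after the correction in each case.

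**Figure D5:**
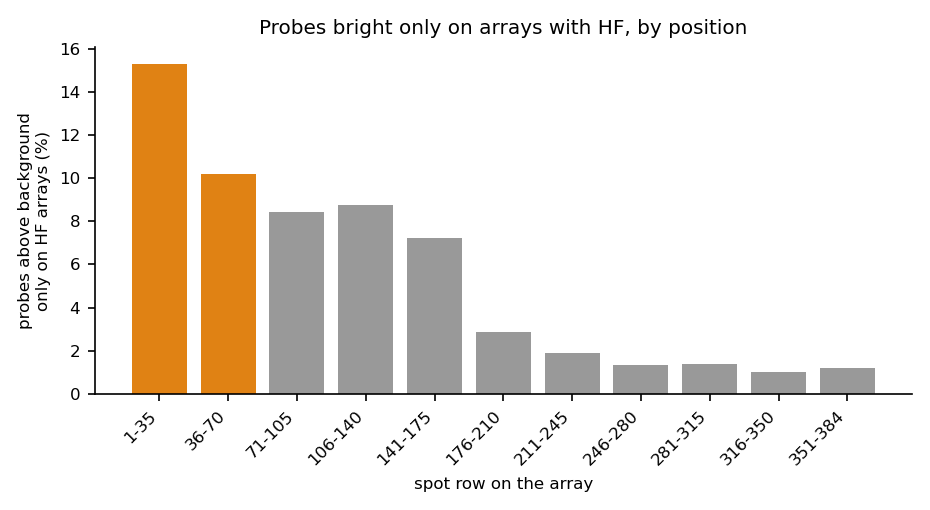
Percentage of probes well above background on at least 1 array with HF and on no array without HF, by spot row on the array, in bands of 35 rows; orange marks rows 1 to 70, where such probes were left aside. The share is highest in rows 1 to 35 (15.3%) and lowest in rows 316 to 350 (1.01%).

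Of 20 markers of microglia and macrophages, 18 were above background on at least 4 arrays, and Sall1 and Gpr34 were at background on all 8. Their summed signal relative to the 75th percentile was 1039 to 1099 in control, 1001 to 1014 with LPS, 747 to 795 with HF and 815 to 903 with LPS+HF. Of the markers of other cells, 2 of 10 for neurons, 4 of 8 for astrocytes, 7 of 9 for oligodendrocytes and 5 of 8 for endothelium were above background on at least 4 arrays. The astrocyte genes Slc1a2, Slc1a3 and Gja1, the oligodendrocyte genes Olig1 and Olig2 and the endothelial genes Tek and Esam were at background on every array, as were 7 of the neuron genes. The summed signal of endothelial markers was 80.6 to 91.7 in control and 32.2 to 34.7 with LPS+HF, and that of oligodendrocyte markers 51.4 to 67.3 and 22.7 to 22.8. None of the measured markers of these other cells passed in the interaction, and their part in the results was not tested.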

How the data were processed

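RNA of 8 BV-2 samples in 4 groups of 2 was measured on single-colour Agilent mouse arrays of 55681 probes that are not controls. The authors deposited scanner files whose intensity values had been background-subtracted by Agilent Feature Extraction 11.5.1.1, per the file headers, with flags for spots well above background. They also deposited a table of log2 values, centred on the median of each probe, which differed from scanner values treated alike by a median of 0.0018 log2 and was used as an alternative.

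From the intensities, log2 was taken and each array's 75th percentile subtracted. Probes stayed in if some group had them well above background on each of its 2 arrays, 30344 in all, and 113 of them, bright only with HF in spot rows 1 to 70, were left aside. The brightest probe stood for a gene, giving 22383 genes, of which 13764 had a RefSeq symbol; 50.3% of the probes had one. limma 3.58.1 (R 4.3.3) fitted lmFit and eBayes to all 4 groups, with 4 residual and 2.05 prior degrees of freedom and two-sided Benjamini-Hochberg adjusted p-values over all genes. The code was tested on simulated data. The spatial correction used windows of 30 rows and 15 columns and masked spots dimmed over 4-fold. For a bound, a group below background was set at the higher of its own value and the array's lowest signal well above background.

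The members and lists were chosen with earlier results of these data known. Genes were named by a rule: the 12 largest interactions each way among passed genes measured in every group with the same sign and at least 1 log2 with control replicate 2 alone, the 3 largest bounds each way, up to 3 passed members of a list (or the 2 of smallest p), and Nos2, Tnf, Il6, Il1b, Ptgs2, Hmox1, Arg1 and Actb always. Since none passed with all 8 arrays, the rule was applied to the genes passed after the spatial correction, and the 28 passed in both settings were added. The number of arrays limits the precision. Alternatives covered background correction, normalization, scaling, filters, the choice of probe, variance model, weights, a replicate block, left-out arrays and the value table. A few results under this rule are not reported here.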

Additional observations from a re-analysis of the deposited data

Results flagged for a closer look

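The probes left aside as bright only on HF arrays in spot rows 1 to 70 carried signal that the comparisons did not use. Of these, 113 passed the filter on dim probes; 89 were well above background on both HF arrays and 32 on both LPS+HF arrays. When they were kept, 12 genes passed for the interaction with all 8 arrays (limma adjusted p = 0.0389 to 0.0411), 3 above 0 and 9 below, where none passed without them. Sfpq, AA467197, Cx3cr1, Slfn4 and Mirt2 were among the 12. Their interactions were those of the fit without the added probes, such as 2.46 for Sfpq and -4.59 for AA467197. The adjusted p fell with the set of genes it was taken over, so their passing here adds no support. Another 4 were represented by a probe that had been left aside: Olfr1317 at -4.56, the transcript U28216 at -4.34, Cfap206 at -3.47 and the probe NAP062643-1 at -4.66. Their fitted differences with HF were 3.30 to 4.46 log2 without LPS and -0.21 to -0.17 with LPS. These 4 probes were chosen for brightness with HF and are at background on every array without it, so they had to differ there, the fitted values are no measured sizes, and their passing supports nothing. Whether this signal is tied to the position on the array was not tested.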

How the results depend on the processing

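The count of genes passing for the interaction depended on the setting, and the cause was not tested beyond what each alternative changes. Against 0 with all 8 arrays, it was 1 (1 above 0, 0 below) with the mean over the probes of a gene. With the probes left aside kept it was 12 (3 and 9). Without both marked arrays, control and HF each kept 1 array, and the genes that passed were not among the 28. The count was 265 (158 and 107) after the spatial correction. With probes bright only on HF arrays in any row left aside as well it was 259 (155 and 104). It was 329 (187 and 142) with those of rows 1 to 70 kept. Leaving out 1 array gave 0 to 7944, with 0 to 4594 above 0 and 0 to 3350 below. After the correction the same gave 67 (34 and 33) without control replicate 1, 2574 (1550 and 1024) without control replicate 2, 1 (0 and 1) without HF replicate 1, 14 (5 and 9) without HF replicate 2, and 0 without any 1 of the other 4. The other alternatives with all arrays gave 0.

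With the replicate number as a block, 0 genes passed (smallest adjusted p = 0.202, limma), and 0 after the spatial correction with the replicate block (0.0514). Whether the numbers pair the samples is not known. The correlations of same-numbered deviations between groups were -0.10 to 0.27, which cannot decide it.

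Of 104 named genes, 6 turned sign with normexp and quantile normalization: Actb (-0.00196), Cd83 (-0.87), Gins1 (-0.12), Ier3 (-0.12), Ifi27 (-0.64) and Prelid2 (-0.12). The mean over probes turned Dnaja1 (-0.065) and Gatad2a (-0.092). Cd83 ranged from -0.94 without control replicate 2 to 1.28 without control replicate 1, and Ifi27 from -0.79 to 1.98. With 2 arrays per group, 4 residual degrees of freedom and 1 uneven control array, differences near the spread of the control arrays could not be resolved, and levels below background have bounds only. Independence of the cultures was not given.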
